A study of Spirodela polyrhiza with 13 samples.

Results

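A set of 115 genes of the greater duckweed Spirodela polyrhiza stood higher in the middle of frond development than at either end of it. Messenger RNA was sequenced from frond tissue of wild-type plants at 5 developmental stages, numbered 2 to 6. Stages 2 to 4 had 3 libraries apiece and stages 5 and 6 had 2 apiece, which makes 13. The plants were grown without any treatment, under 16 h of light at 23 °C and 8 h of darkness at 20 °C, in SH medium changed every 7 days. The labels define the stages by number alone, so the stages are not tied here to an age or a frond size, and nothing in them tells if replicate libraries were taken from separate cultures. Levels are given in FPKM, a measure of reads scaled to gene length and to the library total. The members were selected on these measured levels: a gene entered the set when the highest of its mean FPKM values at stages 3, 4 and 5, taken as log2(FPKM + 1), exceeded both the stage 2 and the stage 6 value by at least 0.8, and when that peak mean was at least 5 FPKM. The set thus holds 115 of 19623 gene IDs, or 0.85% of the 13526 genes whose highest middle stage reached 5 FPKM, and the limit of 300 members in the rule was not reached.

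The greater duckweed is a floating plant whose leaf-like frond buds daughter fronds from pockets near its base. Gas-filled aerenchyma develops inside the frond and gives it buoyancy, and in plants such spaces form either by the parting of cell walls or by the death of cells. Messenger RNAs that are high for part of an organ's development and low before and after are a common feature of steps such as cell division, expansion or differentiation. In whole fronds, a lower level can come from fewer cells of a type or from less RNA per cell, and these cannot be told apart. Gene IDs stand in the deposited table without names, so the members are described by ID, level, timing and coding length, and no function is given to any of them.

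Most of the members peaked at the same stage. The highest mean lay at stage 4 for 94 members (81.7%), at stage 5 for 12 and at stage 3 for 9. Among all 13526 genes at the 5 FPKM minimum, the highest middle mean lay at stage 4 for 2821 (20.9%), at stage 3 for 6759 and at stage 5 for 3946 (29.2%). Most of those genes did not exceed both ends, and of the 5265 that did, by any margin, 1680 were highest at stage 4. These counts describe the choice, since the members were chosen by the same means. The small groups depended on single libraries. Choosing again with 1 library omitted gave 54 and 28 genes of stage 5 when stage 5 replicate 1 or 2 was omitted, and 31 and 33 for stage 6 replicates 1 and 2. It gave 20 and 15 genes of stage 3 when stage 3 replicate 1 or 2 was omitted, and 14 for stage 6 replicate 1. The genes of stage 4 numbered 81 to 121 under these omissions. With each library scaled by its median ratio to the others, the rule chose 79 genes, of which 5 peaked at stage 3, 56 at stage 4 and 18 at stage 5.

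**Figure D1:**
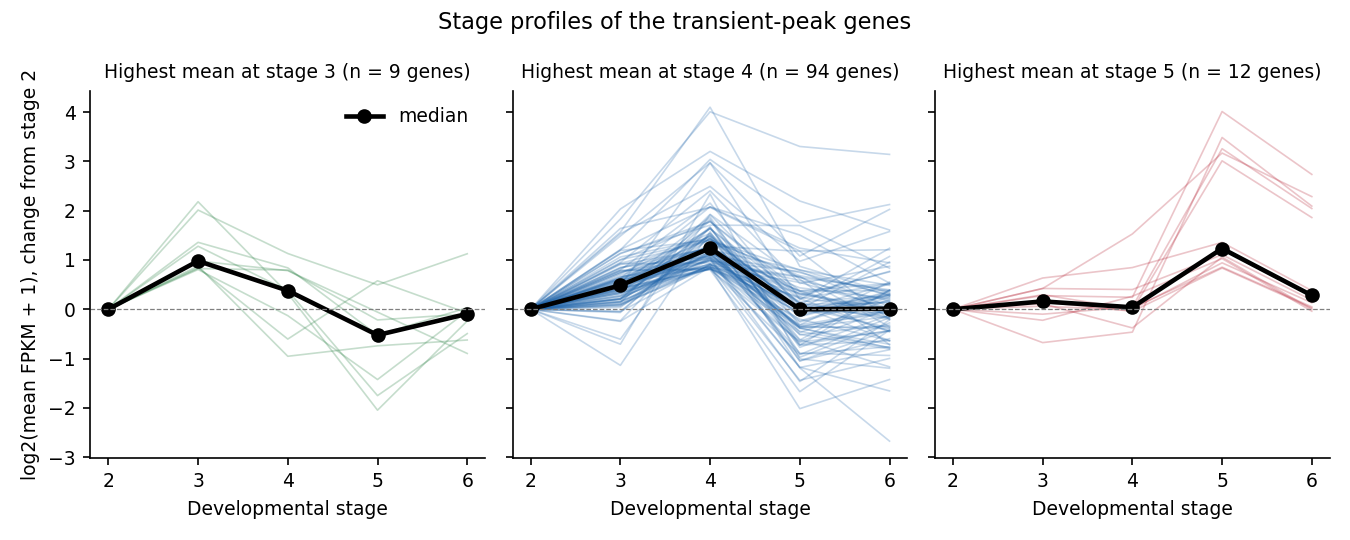
Stage profiles of the 115 genes in 3 panels by the stage of the highest mean. The horizontal axis is the developmental stage and the vertical axis the log2(mean FPKM + 1) of a stage minus that of stage 2; thin lines are genes and the black line with points is their median. The median of the 94 genes highest at stage 4 climbs through stage 3 and is back near the stage 2 level at stage 5, whereas that of the 12 highest at stage 5 stays near the stage 2 level until stage 4.

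At the median, the 94 genes of stage 4 rose over stages 3 and 4 and were back near the stage 2 level at stage 5. Their median level was 8.21 FPKM at stage 2, 12.8 at stage 3, 22.9 at stage 4, 8.16 at stage 5 and 8.07 at stage 6. The stage 3 mean lay between the means of stages 2 and 4 for 86 of the 94, and a median of 39.6% of the log2 climb from stage 2 to stage 4 had been reached at stage 3. A median of 104% of the log2 distance from stage 4 to stage 6 lay between stages 4 and 5. The median change in this step was -1.40 (log2) for these genes and -0.18 for all genes at the 5 FPKM minimum. The labels give no time between stages, so the steps cannot be read as rates. At stage 5 the mean of 36 genes was below both ends, and that of 30 was still above both.

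The other members had later or earlier profiles. The 12 genes of stage 5 had median levels of 13.8, 16.6 and 16.1 FPKM at stages 2, 3 and 4, then 66.1 FPKM at stage 5 and 29.4 at stage 6. The 9 genes of stage 3 had median levels of 9.38 FPKM at stage 2, 29.7 at stage 3, 15.1 at stage 4, 5.54 at stage 5 and 16.1 at stage 6. For 6 of these 9 the stage 5 mean was below both ends, so that a low point followed the peak.

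The members ranged widely in level and little in height of the peak. Peak means ran from 5.07 to 1656 FPKM with a median of 27.9, and 19 members reached 100 FPKM while 27 stayed under 10. The excess over the higher end was 0.98 at the median (log2), with quartiles of 0.87 and 1.25, and only 3 members exceeded it by 2 or more. For 40 members the excess was under 0.90. Just inside the limit lay a gene with an excess of 0.801 and a peak of 7.54 FPKM. Just outside it lay one with 0.799 and a peak of 12.8 FPKM, which was 1 of 64 genes between 0.7 and 0.8. At the other limit, the member with the lowest peak had 5.07 FPKM, the nearest gene outside had 4.38, and 25 genes met the excess but not the FPKM minimum. Few members were very low at both ends: 1 had means of at most 1 FPKM at both, whereas 25 had at least 20 FPKM at both. The member with at most 1 FPKM had a stage 4 mean of 6.35 ± 9.05 FPKM (SD, n = 3) and no read in 1 stage 4 library.

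Together the members took a small share of each library. Reads on the 115 genes made up 0.322%, 0.302% and 0.267% of the reads of the stage 2 libraries, 0.460%, 0.404% and 0.451% at stage 3, and 0.533%, 0.565% and 0.614% at stage 4. They made up 0.391% and 0.383% at stage 5 and 0.298% and 0.351% at stage 6. The 3 stage 4 libraries were the highest of the series, as the choice of members implies. The libraries held 7708200 to 10910370 reads on genes, as read back from the FPKM values, and each member had at least 33 reads over the libraries of its peak stage, with a median of 558.

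The greatest excess of the set belonged to Spipo9G0028100 (coding length 324 bases). It stood at 14.4, 43.6 and 34.2 FPKM in stage 4 replicates 1, 2 and 3, against 0.346, 1.93 and 0.283 at stage 2 and 1.60 and 1.04 at stage 6. Its stage 3 libraries had 5.75, 4.01 and 3.65 FPKM and its stage 5 libraries 1.60 and 3.17. Each stage 4 library was above every other library of the series. The stage 4 mean of 30.7 ± 14.9 FPKM (SD, n = 3), from 293 reads, was 23.3 times the stage 6 mean, and the excess of 3.77 (log2) stayed between 3.45 and 4.10 with any 1 library left out.

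A single library shaped the next member of stage 4. Spipo16G0032900 (315 bases) stood at 116, 11.3 and 33.7 FPKM in stage 4 replicates 1, 2 and 3, and at 7.47, 11.2 and 10.8 FPKM in the stage 2 libraries. It had 5.22, 3.78 and 7.85 FPKM at stage 3, 6.59 and 2.17 at stage 5 and 4.93 and 2.50 at stage 6. Replicate 2 of stage 4 was barely above the highest stage 2 library, and the stage 4 mean was 53.6 ± 55.1 FPKM (SD, n = 3). The excess of 2.34 dropped to 1.12 without stage 4 replicate 1.

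Both named members of stage 5 were low through stage 4. Spipo3G0025700 (540 bases) stood at 23.1 and 39.5 FPKM in the stage 5 libraries and at 13.4 and 9.17 at stage 6. Its values in the 9 libraries of stages 2 to 4 lay between 0.598 and 2.12 FPKM. Spipo21G0012600 (195 bases) stood at 229 and 329 FPKM at stage 5 and at 150 and 79.1 at stage 6, after values between 13.2 and 24.1 FPKM at stages 2 to 4. For both genes the stage 5, stage 6 and earlier libraries formed 3 groups without overlap. Their stage 5 means of 31.3 ± 11.6 and 279 ± 70.9 FPKM (SD, n = 2) were 2.77 and 2.44 times their stage 6 means.

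Both named members of stage 3 were highest in the same library. Spipo2G0033500 (3204 bases) stood at 69.3, 51.4 and 111 FPKM in stage 3 replicates 1, 2 and 3, between 27.0 and 32.1 FPKM at stage 2, and at 35.6 and 24.8 FPKM at stage 6. Its stage 4 libraries, with 42.6, 52.4 and 65.9 FPKM, overlapped those of stage 3. Spipo7G0059700 (1449 bases) stood at 122, 112 and 294 FPKM in the stage 3 libraries, between 57.3 and 79.3 FPKM at stage 2, and at 72.2 and 29.4 FPKM at stage 6. The excess was 1.33 and 1.28 for these genes, and 0.98 and 0.69 without stage 3 replicate 3, so that the second gene then missed the 0.8 limit.

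**Figure D2:**
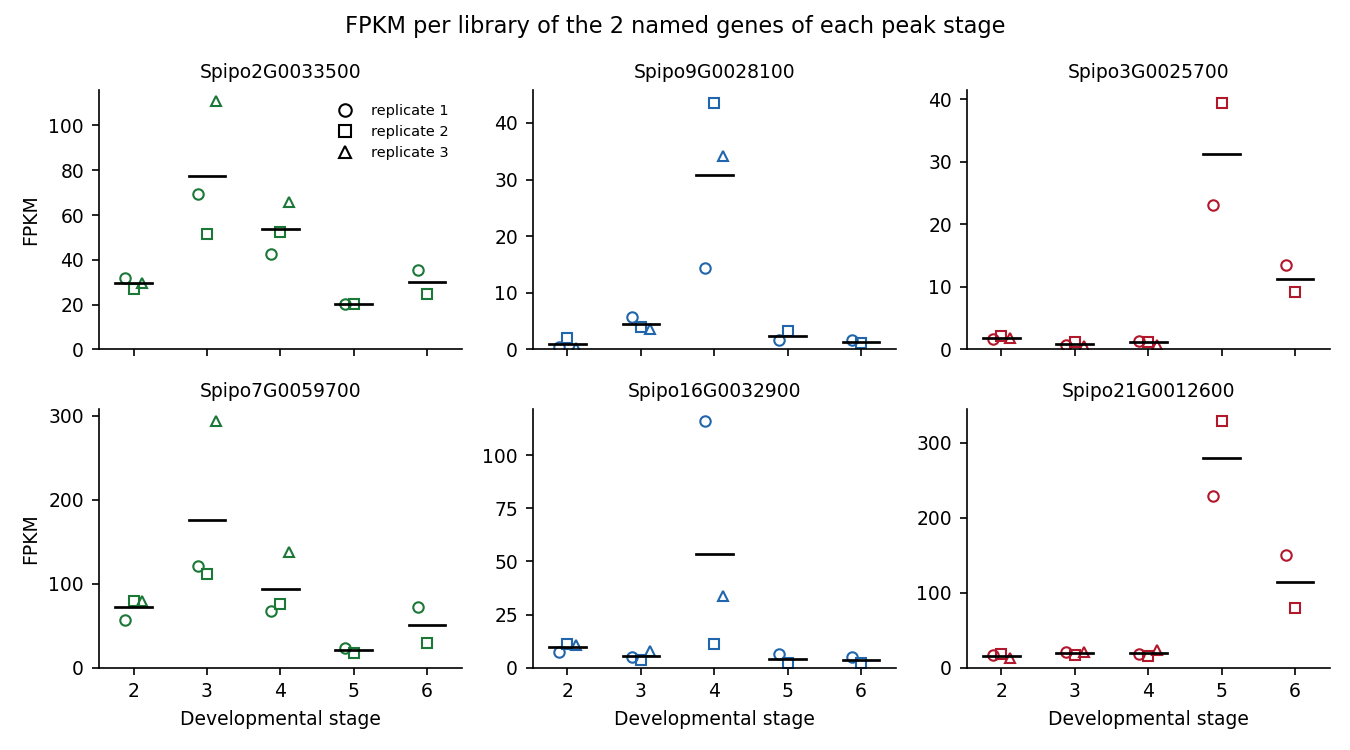
FPKM in each library for the 2 named genes of each peak stage, with the developmental stage on the horizontal axis and a linear vertical axis from 0. Open symbols are libraries by replicate number and black bars are stage means. Replicate 3 lies highest at stage 3 in both left panels, and replicate 1 of stage 4 stands alone at 116 FPKM for Spipo16G0032900.

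Stage 3 replicate 3 was the highest stage 3 library for 8 of the 9 genes of stage 3, and for 5287 of the 13526 genes at the 5 FPKM minimum. The member of stage 3 with the largest excess, Spipo2G0126500, named here after its values were seen, had 7.33, 5.20 and 59.1 FPKM in stage 3 replicates 1, 2 and 3. Its highest stage 2 library had 7.90 FPKM, and its excess of 2.18 was 0.41 without replicate 3. Only 4 of the 9 genes had all stage 3 libraries above every library of stages 2 and 6.

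Separation of single libraries was more frequent for the later peaks. All peak-stage libraries lay above every library of stages 2 and 6 for 83 of the 94 genes of stage 4, for all 12 of stage 5 and for 99 of all 115 members. Among all genes at the 5 FPKM minimum, 12.3% showed this separation, and among those above both ends by any margin 31.7%. The rule used the means of these libraries, so the gap to these shares is not independent of the choice. Stage 5 has 2 libraries to separate and stages 3 and 4 have 3.

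The members varied between libraries of 1 stage. The highest peak-stage library was a median of 1.60 times the lowest, over the 114 members with reads in each of them, and more than 2 times for 33 and more than 3 times for 13. The median was 1.59 for the genes of stage 4, 3.02 for those of stage 3 and 1.19 for those of stage 5. For all genes at the 5 FPKM minimum it was 1.25 when stage 4 was their highest middle stage, 1.18 for stage 3 and 1.14 for stage 5. The widest ratio, 15.5, was that of Spipo2G0110400, named here after its values were seen. It stood at 37.3, 2.41 and 6.30 FPKM in stage 4 replicates 1, 2 and 3, and without replicate 1 its middle stages no longer exceeded the ends (excess -0.76).

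How far the height of a peak carried over to a library that had no part in the choice was read by leaving out each library in turn and choosing the genes again. In a left-out stage 4 library, the genes chosen for stage 4 were at least 0.8 above both end means in 52 of 121 cases for replicate 1, in 57 of 93 for replicate 2 and in 51 of 81 for replicate 3. These shares were 43.0%, 61.3% and 63.0%, against 2.53%, 3.21% and 3.89% of all genes at the 5 FPKM minimum with their highest middle mean at stage 4. By any margin, 91.7%, 97.8% and 93.8% of the chosen genes lay above both ends in the left-out library, against 45.0%, 52.6% and 41.2% of all those genes. The left-out library is new to the choice, but the end means it is set against are those that chose the genes as low there, so part of these shares is fixed by the choice.

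For the peaks of stages 3 and 5 the same reading rests on fewer genes. In the left-out stage 3 libraries, 3 of 20 (15.0%), 1 of 15 (6.67%) and 3 of 9 genes (33.3%) reached 0.8 again, against 0.0927%, 0.0571% and 0.363% of all genes at the minimum with their highest middle mean there. In the left-out stage 5 libraries, 6 of 54 (11.1%) and 6 of 28 (21.4%) did, against 0.563% and 0.904%. The choice without a stage 5 library rests on the single remaining one and enlarges the stage 5 set from 12 to 54 or 28 genes. By any margin, 14 of 20, 12 of 15 and 6 of 9 genes lay above both ends at stage 3, and 32 of 54 and 26 of 28 at stage 5. Among all those genes the shares were 27.7% to 31.8% at stage 3, and 31.1% and 29.4% at stage 5. The shares of all genes differ by stage, and the stages were not tested against each other.

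At the ends, a left-out stage 2 library was at least 0.8 below the peak for 67.7%, 72.8% and 85.2% of the genes chosen without it, and a left-out stage 6 library for 56.7% and 53.5%. Among all genes at the 5 FPKM minimum the shares were 17.2% to 19.4% for stage 2 and 31.4% and 25.9% for stage 6. The peak means in this reading are those that chose the genes as high, so part of the members' shares is fixed by the choice.

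**Figure D3:**
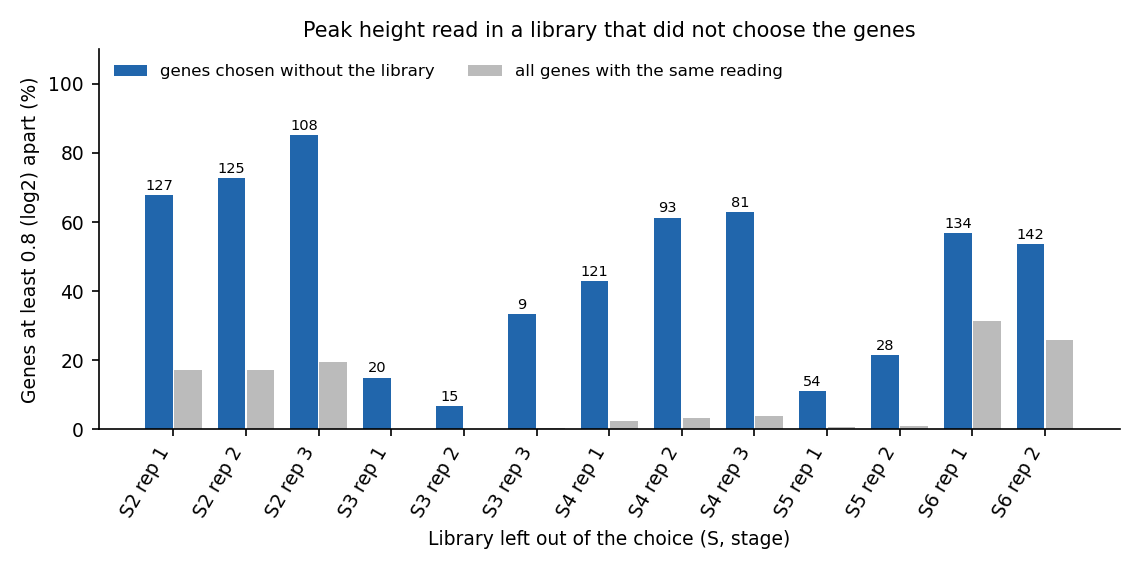
Share of genes that are at least 0.8 (log2) apart in a library that did not enter their choice, by left-out library. For stages 3 to 5 this is the library above both end means, and for stages 2 and 6 the peak mean above the library; blue bars are genes chosen without that library, with their number on top, and grey bars all genes with a mean of at least 5 FPKM read the same way. The bars of stage 4 stand between 43.0% and 63.0%, those of stages 3 and 5 between 6.67% and 33.3%.

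Within stages, the genes of stage 4 differed between libraries in the same direction. Stage 3 replicate 1 was above the mean of the other stage 3 libraries for 72.3% of the 94 genes, by a median of 0.27 (log2), and stage 3 replicate 3 was above it for 30.9%, with a median of -0.35. At stage 2, replicate 3 was above the others for 31.9%, with a median of -0.20. At stage 4, replicate 3 was above the others for 61.7% and replicate 1 for 40.4%. All genes at the 5 FPKM minimum gave 41.8% to 59.1% for the 13 libraries, and 59.1% for stage 4 replicate 1. Replicate 1 was the highest library at both stage 2 and stage 3 for 35 of the 94 genes (37.2%), against 16.2% of all genes at the minimum. No label ties libraries of equal number across stages, and the part of this pattern in the peak was not tested.

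**Figure D4:**
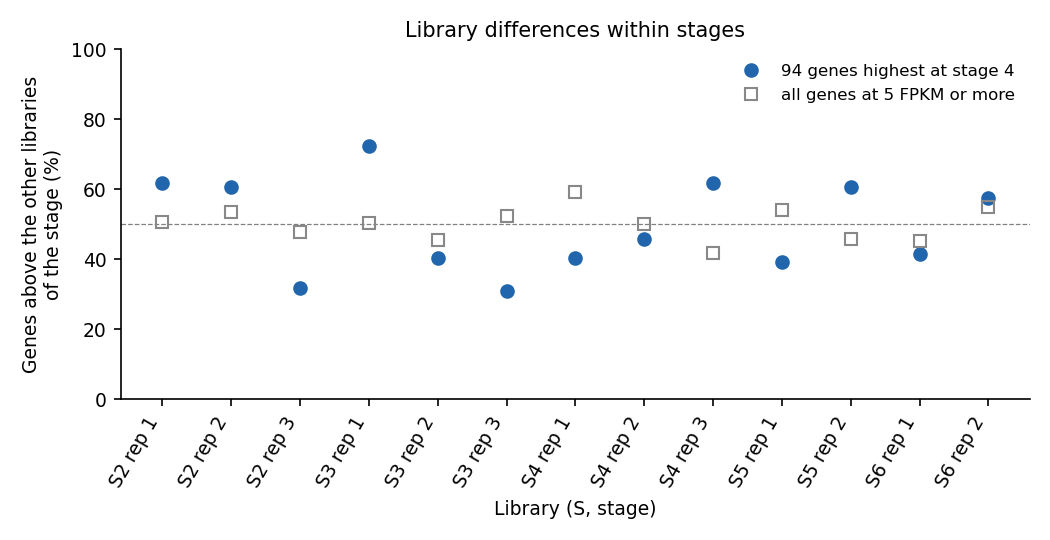
Share of genes that lie above the mean of the other libraries of the same stage, for each of the 13 libraries on the horizontal axis. Filled circles are the 94 genes highest at stage 4 and open squares all genes with at least 5 FPKM; the dashed line marks 50%. Stage 3 replicate 1 lies at 72.3% and stage 3 replicate 3 at 30.9% for the genes of stage 4, while the squares stay between 41.8% and 59.1%.

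Whether the genes returned to their starting level was asked by comparing stage 6 with stage 2, since the rule holds both ends below the peak but leaves their order free. The comparison used limma on log2(FPKM + 1), fitted over 15608 genes that reached 1 FPKM in 2 or more libraries, all 115 members among them. At adjusted p under 0.05, 32 members (27.8%) were called, of which 19 were higher and 13 lower at stage 6, against 74.2% of all genes tested, of which 28.1% were called higher and 46.1% lower. Of the genes above both ends by any margin, 53.8% were called. The median change from stage 2 to stage 6 was 0.01 (log2) for the members and -0.28 for all genes tested. It was -0.13 for the genes above both ends by any margin. The position of the members near 0 depends on the scaling: their median change was 0.32 under median ratio scaling, which raises the median change of all genes by 0.31.

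The lower share of calls is not independent of the choice, because genes that climb or decline through the whole series cannot clear both ends. The members were also measured less precisely, with a median standard error of 0.31 (log2) for this change against 0.15 for all genes above both ends. A missed call therefore does not show a return to the starting level. The change was under 0.3 (log2) in size for 48 members (41.7%), against 19.7% of all genes tested. It was at least 1 for 19 members and for 6229 of the 15608 genes tested. The choice limits these sizes in the same way as the calls, so they do not show a return either.

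The calls fell differently on the peak groups. Of the 12 genes of stage 5, 5 were called and all of these were higher at stage 6 than at stage 2. Of the 94 genes of stage 4, 14 were called higher and 12 lower, and of the 9 genes of stage 3, 1 was called lower. Among all genes tested, 28.1% were called higher and 46.1% lower. Of the 1680 genes above both ends by any margin and highest at stage 4, 50.5% were called, 276 higher and 573 lower. The peak groups were not tested against each other. Under median ratio scaling 30 members were called higher and 7 lower, against 37.2% and 34.8% of all genes tested, and the 26 members called under both scalings kept their sign.

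The 2 largest rises among these calls belonged to different peak groups. Spipo22G0040400 (528 bases), which also had the highest stage 4 mean of all members with their peak there, stood at 22.9, 11.2 and 7.99 FPKM at stage 2 and at 176, 238 and 309 at stage 4. It kept 90.7 and 173 FPKM at stage 6, 9.39 times the stage 2 mean. On the log2(FPKM + 1) scale limma gave a difference of 3.19 with an SE of 0.39 (adjusted p = 8.64e-06). All libraries of stages 4 to 6 were above those of stages 2 and 3. The higher stage 6 library, at 173 FPKM, was close to the lowest stage 4 library, at 176 FPKM. The excess of Spipo22G0040400 was 0.864, and without stage 4 replicate 3 it was 0.647, under the limit of the rule. Spipo21G0012600, described above for its stage 5 peak, rose 7.01-fold from 16.4 ± 2.85 FPKM (SD, n = 3) to 115 ± 50.2 (n = 2). Its limma difference was 2.68 with an SE of 0.26 (adjusted p = 9.72e-07).

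The 2 largest falls were of genes that left the detectable range or came near its limit. Spipo7G0029200 (324 bases) stood at 5.88, 5.78 and 4.53 FPKM at stage 2, from 51 reads, and at 35.1, 3.33 and 15.6 FPKM at stage 4. Stage 4 replicate 2 was below all of its stage 2 libraries, so its peak and its start overlapped. Neither stage 6 library had a read. Set against 3 reads over both libraries, its stage 6 level was at least 9.67-fold lower than the stage 2 mean. This bound covers counting error at stage 6 only and was not tested. The limma difference was -2.67 with an SE of 0.73 (adjusted p = 0.00483). Spipo1G0061500 (297 bases) fell from 8.31 ± 3.30 FPKM (SD, n = 3) at stage 2 to 1.95 ± 1.53 (n = 2) at stage 6. The limma difference was -1.70 with an SE of 0.59 (adjusted p = 0.0191). Its call was lost without stage 2 replicate 1 (adjusted p = 0.0641, limma) and without stage 6 replicate 1 (adjusted p = 0.187, limma).

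**Figure D5:**
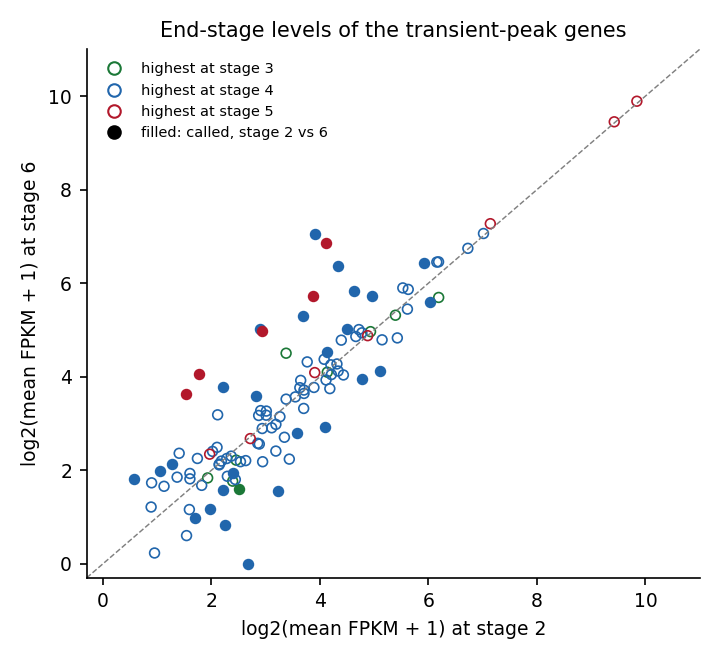
Level at stage 6 against level at stage 2, both as log2(mean FPKM + 1), for the 115 genes. Each circle is a gene, coloured by the stage of its highest mean and filled where limma called the change from stage 2 to stage 6; the dashed line marks equal levels. The 32 filled circles lie on both sides of the line, 19 above and 13 below, and the 5 filled circles of stage 5 all lie above.

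Single steps were called unevenly along the series. The rule shares its values with these comparisons, so the counts only describe the members. From stage 2 to stage 3, 27 members were called, all higher, against 8.81% of all genes called higher and 6.64% called lower. From stage 3 to stage 4, 15 were called higher and 1 lower, against 1.91% and 1.1% of all genes. From stage 4 to stage 5, 78 were called lower, 73 of them genes of stage 4, and 9 higher, all of stage 5, against 30.7% and 14.9% of all genes (45.6% in either direction). From stage 5 to stage 6, 10 were called lower, 8 of them genes of stage 5, and 4 higher, against 7.2% and 5.35% of all genes. Across all stages the F test of limma called 101 members (87.8%), against 79.3% of all genes.

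The number of calls in 3 of these steps rested on single libraries. Omitting stage 2 replicate 3 left 15 members called from stage 2 to stage 3, while the share of all genes called went from 15.4% to 4.87%. The 16 called from stage 3 to stage 4 became 35 when stage 3 replicate 1 was omitted, 10 with replicate 2 omitted, 8 with replicate 3 omitted and 6 with stage 4 replicate 3 omitted. The share of all genes was 3.29%, 1.03%, 1.19% and 0.827% in these fits, against 3.00% with all libraries. The 14 called from stage 5 to stage 6 became 5 or 6 when either stage 5 library was omitted, and 4 with stage 6 replicate 1 omitted. The share of all genes was then 3.66%, 3.95% and 1.73%, against 12.6%. Median ratio scaling raised the median change of all genes from stage 4 to stage 5 by 0.19 (log2), and 72 members were then called lower and 12 higher, against 18.4% and 21.6% of all genes.

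Coding sequences of the members were at the median shorter than those of all genes at the 5 FPKM minimum. Their median coding length was 831 bases, with a range of 174 to 3396, against 1032 bases for all those genes. It was 663, 792 and 889 bases for the genes of stages 3, 4 and 5. In short genes fewer reads stand behind the same FPKM, so length and counting error move together here, and their part in the choice was not tested.

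Some members carried neighbouring IDs. Of the 115 members, 6 (5.22%) had a member as the next ID of the table with the same number before the letter G, against 1.08% of the other genes at the 5 FPKM minimum, and both genes of each of the 3 pairs peaked at the same stage. Within 5 places the shares were 13.9% and 5.27%. The members were spread over 30 of the 33 such ID groups. The most abundant members formed 1 of the pairs, Spipo0G0159300 (369 bases) and Spipo0G0159400 (408 bases), named here after their values were seen. They stood at 1287 and 1164 FPKM and at 1708 and 1604 FPKM in the stage 5 libraries, and at 536 and 859 and at 718 and 1176 FPKM at stage 6. The reads of the first were 0.608 to 0.693 times those of the second in all 13 libraries. Whether they share reads as similar copies was not tested. Both were near the limit of the rule, with an excess of 0.81 each, and under it without stage 5 replicate 1 (0.74 and 0.76). Stage 6 replicate 1 was the lower stage 6 library for both, at 536 and 718 FPKM. Without it the stage 6 mean is higher, and the excess of both genes falls under the limit as well.

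Likeness of profile was read over the 5 stage means as a description. The 2 members closest to Spipo9G0028100 had Pearson correlations of 0.98 and 0.97 with it, those closest to Spipo3G0025700 0.99 and 0.99, and those closest to Spipo2G0033500 0.96 and 0.95. All of these shared the peak stage of the gene they were closest to, except the second of Spipo2G0033500, which peaked at stage 4. The median over the other 114 members was 0.85, -0.50 and 0.60. With 5 points a gene and members chosen for a middle peak, high values follow in part from the choice.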

How the data were processed

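The authors deposited 1 table of FPKM values for 19623 gene IDs, with 1 column per library named by the sample title. The submitters' processing notes name HTSeq 0.11.3, HISAT2 2.2.1, Trimmomatic 0.39, CASAVA 1.8.2 and Picard 2.25.5. For genome build, annotation and the strand setting of the counting, the entry is: not given in the sources used here. The kit was stranded, per the labels. Without a stated strand setting, overlapping antisense genes cannot be told apart, and similar copies may share reads.

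Whole reads were read back from the steps of the FPKM values, with lengths searched among multiples of 3. They were whole within 0.001 reads for 17392 of 17445 genes with any value and for all 115 members, and gave the same member lengths when every whole number was searched. They serve for depth, lengths and an alternative test. Libraries held 7708200 to 10910370 reads, and counting limits cover counting error only.

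Tests across genes were run in R 4.3.3 with limma 3.58.1 on log2(FPKM + 1), with a mean per stage over all 13 libraries, 8 residual degrees of freedom, a mean-variance trend and Benjamini-Hochberg adjustment over 15608 genes. A change on this scale understates that of low genes. Excess values are differences of log2(stage mean + 1). P-values measure the spread between libraries, which may be technical. The code was run on simulated data with planted changes and the same spread setting for every gene. That run checks the code and says nothing about the peaks of the members.

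The members and lists were chosen with earlier results of these data known. Lists by product name could not be applied to bare IDs. For each peak stage the 2 members of largest excess without overlap between peak and end libraries are named, and the 2 largest called rises and falls from stage 2 to stage 6. Alternatives changed the pseudocount, filters, limits, scaling, libraries and model.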

Additional observations from a re-analysis of the deposited data

How the results depend on the processing

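The number of members followed its limits: 436 at an excess of 0.5, 34 at 1.2, 68 at a peak of 20 FPKM and 56 with a pseudocount of 5. It was 104 to 157 with 1 library left out, and 52 of the 115 (45.2%) were chosen under each of the 13 omissions. Median ratio scaling gave 79 genes, 69 of them members, and quantile normalization 93, 80 of them members; under both, all 115 members stayed above both ends, by at least 0.52 and 0.61 (log2). Stage medians gave 113 genes, of which 89 were members. With 1 library of stages 2 to 4 left out, 28 to 34 members were called between stages 2 and 6, against 71.2% to 74.9% of all genes. From stage 2 to 3 the counts were 15 to 32 (all genes 4.87% to 17.4%). From stage 3 to 4 they were 6 to 35 (all genes 0.827% to 3.29%). From stage 4 to 5 they were 80 to 91 (all genes 37.7% to 45.5%). From stage 5 to 6 they were 12 to 17 (all genes 10.1% to 15.0%). The F test called 95 to 111 (all genes 75.9% to 79.6%). With any 1 library left out, 99 to 105 members had separated libraries, a count that an omission can only keep or raise. It was 90 under median ratio scaling and 97 under quantile normalization. Without a stage 5 library, fewer members were called from stage 4 to 5 and from 5 to 6. Without a stage 6 library, fewer were called from stage 2 to 6 and from 5 to 6. A lone stage 5 or 6 library was assumed to vary like the others. Library weights called 46 members from stage 2 to 3 (31.9% of all genes) and 64 from 3 to 4 (21.8%). The main fit called 15.4% and 3.00% of all genes in these steps. From stage 3 to 4, recovered reads with voom called 27 members (3.44% of all genes) and a fit of stages 3 and 4 alone 10 (1.45%). The cause was not tested. Same-numbered libraries deviated together by -0.24 to 0.37 (correlation), over 0.1 in 7 of 23 pairs. Pairing would have required this of every pair and no label gives it, so it was not assumed, although 8 of 13 libraries were closest to their own number, which is a hint from the data. A replicate block called 30 members from stage 3 to 4 (3.91% of all genes) and 31 from stage 2 to 6 (74.5%). The main fit called 16 (3.00%) and 32 (74.2%). For the members named by largest excess or largest called change, 150 of 154 alternative values kept their call or stayed within the spread between libraries, and none reversed. Many of these values repeat the main one because the omitted library did not enter it. The 150 include Spipo7G0059700 without stage 3 replicate 3, which missed the 0.8 limit with 0.69. Members named after their values were seen are not counted. Of these, Spipo2G0110400 had an excess of -0.76 without stage 4 replicate 1. Depth limits the members with few reads: 8 had under 100 at their peak stage.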
